A study of Homo sapiens with 12 samples.

Results

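The regions described here were open chromatin peaks found in KYSE150 and not in KYSE510, both established human oesophageal squamous carcinoma cell lines. Peaks with a height (pileup, the largest number of fragments stacked at any position of the peak) of 3 or more in the 12 libraries were merged on chromosomes 1 to 22 where they shared at least 1 base. A merged region was kept when it held a peak of height 5 or more in each of the 6 KYSE150 libraries and no peak of height 3 or more in any of the 6 KYSE510 libraries. Of 283481 merged regions, 378 met this rule. The heights in KYSE150 and the absence in KYSE510 chose the regions, so the difference between the lines is described below and not tested.

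Accessibility was measured by ATAC-seq, in which a transposase cuts and tags DNA that nucleosomes leave exposed. There were 4 groups of 3 libraries: KYSE150 control, KYSE150 with HCP5 silenced, KYSE510 control and KYSE510 with HCP5 silenced. HCP5 is a long non-coding RNA, and the series' title ties it to apoptosis and to transcription of c-Myc. Each line stands for 1 tumour and all cells were grown in culture. The means of silencing and the kind of control are not given in the sources used here, and the labels do not say whether replicates came from separate cultures, so the spread between them may be technical.

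Of 10 genes fixed as squamous markers, TP63, KRT5, DSG3, KLF5, GRHL2, TFAP2A and PERP had a peak of height 5 or more in the gene or within 1 kb of it in all 6 libraries of both lines. KRT14 had none in either line, and KRT6A and SOX2 had one in 0 KYSE150 and 6 KYSE510 libraries. Among markers of other cells, CD3E, CD79A, NEUROD1, OLIG2, SOX10 and ALB had none in any library. PTPRC, SPI1, HNF4A and PRRX1 had one in all 12, and CD14, GFAP, APOA1, CDX2, COL1A1, COL1A2, COL3A1 and TWIST1 in some.

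The 2 sets of libraries differed in how much they recorded, and this bears on the rule. A KYSE150 table held 547125 to 630780 peaks and a KYSE510 table between 115868 and 135948, and the smallest deposited height was 1 in KYSE150 and 2 in KYSE510. The implied background, the height expected by chance that the peak tables themselves encode, lay between 0.0826 and 0.108 for KYSE150 and between 0.180 and 0.217 for KYSE510. Peaks of height 3 or more on the autosomes were fewer in KYSE150 (51492 to 61585) than in KYSE510 (101552 to 119939). The same height limits applied the other way round gave 5135 regions open only in KYSE510. The part of depth in these unequal numbers was not tested.

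Most accessible sites of a cell are shared with other cells of its lineage, and gene starts make up much of that shared portion. Sites that differ between cell lines lie more often within introns and between genes, where enhancers are found. A site can also be missing from a line because the DNA beneath it was lost, since carcinoma lines carry deletions, among which loss of the cell cycle inhibitor genes CDKN2A and CDKN2B is well known in squamous carcinoma. Peak lists alone do not separate a closed site from an absent one.

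Where a chosen region covers a gene start, the reference sequence of that start shows what DNA was open in KYSE150. The sequences below are 300-base windows running from 250 bases before to 50 bases after a start, from RefSeq (GRCh38.p14), written 5′ to 3′ on the gene's own strand. Capitals mark matches on either strand to CCAAT (the NF-Y box), GGGCGG (the GC box), TATAAA (the TATA box), TGANTCA (AP-1), TGACGTCA (the cAMP response element), GGAATG (TEAD) and GCCNNNNGGC (TFAP2), and matches to the last can overlap other motifs. STARD3NL and ZNF140 are shown because they were the tallest chosen regions at a gene start. The CDKN2B, CDKN2B-AS1, ZNF787, H4C5 and H2BC8 starts are shown because they lie in long stretches without any KYSE510 peak, and they were picked after their values were seen.
STARD3NL (chr7:38177995-38178294, plus strand): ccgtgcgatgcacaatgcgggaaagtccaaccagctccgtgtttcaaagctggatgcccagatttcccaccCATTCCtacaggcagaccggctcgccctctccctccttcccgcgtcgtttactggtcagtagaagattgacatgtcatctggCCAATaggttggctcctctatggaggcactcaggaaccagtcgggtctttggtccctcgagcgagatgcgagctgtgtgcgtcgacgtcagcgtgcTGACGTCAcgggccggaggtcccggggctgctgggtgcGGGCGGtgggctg
ZNF140 (chr12:133080673-133080972, plus strand): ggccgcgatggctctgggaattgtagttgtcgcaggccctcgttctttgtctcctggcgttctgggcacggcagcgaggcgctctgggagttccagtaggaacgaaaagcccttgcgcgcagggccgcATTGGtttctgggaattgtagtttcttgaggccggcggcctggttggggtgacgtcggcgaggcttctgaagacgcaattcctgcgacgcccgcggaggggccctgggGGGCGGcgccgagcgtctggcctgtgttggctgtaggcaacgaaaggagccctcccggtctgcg
CDKN2B (chr9:22009256-22009555, minus strand): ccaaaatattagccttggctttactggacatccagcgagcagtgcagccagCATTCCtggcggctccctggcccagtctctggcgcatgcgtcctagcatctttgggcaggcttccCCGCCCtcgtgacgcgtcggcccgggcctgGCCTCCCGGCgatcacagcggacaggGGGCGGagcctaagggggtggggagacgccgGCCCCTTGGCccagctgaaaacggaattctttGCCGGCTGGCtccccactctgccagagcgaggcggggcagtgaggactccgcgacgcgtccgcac
CDKN2B-AS1 (chr9:21994541-21994840, plus strand): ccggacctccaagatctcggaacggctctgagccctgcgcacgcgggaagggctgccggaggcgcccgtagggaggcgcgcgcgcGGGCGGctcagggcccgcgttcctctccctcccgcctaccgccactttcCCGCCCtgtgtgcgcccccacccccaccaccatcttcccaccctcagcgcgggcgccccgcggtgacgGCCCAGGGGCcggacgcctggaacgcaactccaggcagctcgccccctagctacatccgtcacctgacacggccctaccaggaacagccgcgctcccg
ZNF787 (chr19:56121246-56121545, minus strand): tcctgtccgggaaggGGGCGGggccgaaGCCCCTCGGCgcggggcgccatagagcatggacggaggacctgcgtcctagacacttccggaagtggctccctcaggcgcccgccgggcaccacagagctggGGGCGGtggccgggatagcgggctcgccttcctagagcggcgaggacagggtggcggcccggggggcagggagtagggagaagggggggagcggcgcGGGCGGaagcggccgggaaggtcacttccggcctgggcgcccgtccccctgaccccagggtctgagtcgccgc
H4C5 (chr6:26204360-26204659, plus strand): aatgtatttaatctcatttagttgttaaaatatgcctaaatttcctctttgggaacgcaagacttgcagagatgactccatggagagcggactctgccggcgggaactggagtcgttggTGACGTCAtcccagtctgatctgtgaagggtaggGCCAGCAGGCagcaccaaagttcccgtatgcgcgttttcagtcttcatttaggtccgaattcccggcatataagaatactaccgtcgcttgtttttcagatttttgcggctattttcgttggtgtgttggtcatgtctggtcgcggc
H2BC8 (chr6:26216639-26216938, minus strand): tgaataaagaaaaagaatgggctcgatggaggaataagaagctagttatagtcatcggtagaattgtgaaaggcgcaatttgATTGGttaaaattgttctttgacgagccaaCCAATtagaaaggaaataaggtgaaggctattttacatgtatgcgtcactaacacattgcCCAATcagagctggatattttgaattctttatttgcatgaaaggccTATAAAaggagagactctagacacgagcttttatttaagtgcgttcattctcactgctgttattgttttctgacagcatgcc

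These starts are unlike in composition. The CDKN2B-AS1 window had 74.0% G and C and the CDKN2B window 67.3%, while H2BC8 had 37.3% and H4C5 47.7%. The H2BC8 window holds 3 CCAAT matches and a TATAAA, the arrangement textbook histone genes use for their burst of transcription in S phase. TGACGTCA, which ATF and CREB proteins bind, is in the windows of STARD3NL and H4C5. Matches are descriptions of the letters and say nothing of which proteins were bound.

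Across all chosen regions, 36 overlapped a start window, with 50 windows of 46 gene symbols between them. Some of these windows overlap each other, within the same gene or between neighbouring genes such as H2AC8 and H2BC8, so they are not 50 separate sites. Median G and C content was 58.7% in these 50 windows, 65.3% in 7241 windows at regions open in all 12 libraries and 58.7% in all 33558 autosomal windows. A GGGCGG match was in 54.0% of the 50 windows, 74.3% of the windows at regions open in all 12, 57.4% of the 472 at regions open only in KYSE510, and 45.0% of all windows. For CCAAT the shares in the same order were 44.0, 43.4, 44.7 and 34.4%. TGACGTCA was in 5 of the 50 windows (10.0%), against 3.41, 3.39 and 1.86%, and 5 windows are too few to say more. Among the 5, the windows of ZSCAN5A and ZSCAN5A-AS1 overlap and hold the same match. TATAAA was in 10.0, 4.59, 7.63 and 11.6%, TGANTCA in 8.0, 5.58, 9.32 and 7.68%, GGAATG in 16.0, 10.8, 10.4 and 14.1%, and GCCNNNNGGC in 32.0, 30.7, 30.3 and 21.6%.

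The regions lay mostly in the lower part of the range of strong KYSE150 regions. Their length was 236 to 1444 bp with a median of 586.5 bp, and the median height over the 6 libraries ran from 5.5 to 94.5 with a median of 10.0. Median height exceeded 20 in 24 regions and 30 in 6, and was 10 or less in 192. When all regions with a peak of height 3 or more in each KYSE150 library were ranked by fold enrichment, the median percentile of the chosen regions was 44.5 to 50.7 in the 6 libraries. That set includes regions under the height of 5 that the rule required, and among the 17387 regions that reached 5 in all 6 libraries the median percentile was 26.97 to 34.0. Median height in these 17387 was 12.5, and 13.5 in the regions open in all 12 libraries. Heights varied between libraries with a median coefficient of variation of 25.5% (5.05 to 55.7%) after each was divided by its library's median. The chosen regions were 2.17% of these 17387 regions, of which 86.2% had a peak of height 3 or more in all 6 KYSE510 libraries.

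Regions near the limits of the rule show how fine its edges are. Just inside the height limit lay chr3:14616919-14618077, 13902 bp from GRIP2, with heights of 7, 6 and 5 in KYSE150 control and 5, 6 and 5 in silenced libraries, and chr3:17602121-17602552 in TBC1D5, with 5, 7 and 6 and then 6, 5 and 6. Just outside it lay chr9:5388954-5389686 in PLGRKT (13, 17 and 16 in control, 4, 10 and 9 in silenced) and chr8:74866457-74867307, 11428 bp from PI15 (10, 16 and 19, then 12, 6 and 4). Outside the KYSE510 limit, chr2:78541567-78542374 reached 70, 47 and 61 in control and 44, 51 and 42 in silenced KYSE150 libraries and was dropped for a height of 3 in silenced KYSE510 replicate 2. A region 3495 bp from CD274, which encodes the immune checkpoint ligand PD-L1, was dropped in the same way: chr9:5446407-5447047 had heights of 34, 33 and 42 in control, 22, 36 and 21 in silenced KYSE150 libraries, and 3 in silenced KYSE510 replicate 3. The lowest height was 5, the limit itself, in 105 chosen regions, 161 regions missed with a lowest height of 4, and 98 missed because 1 KYSE510 library reached 3.

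The tallest region lay 2238 bp from ARGLU1, which encodes a regulator of splicing, at chr13:106570375-106570888. Its heights were 109, 92 and 111 in control replicates 1 to 3 and 97, 76 and 76 in silenced replicates 1 to 3. Each of these exceeded every height of the other chosen regions, which reached 66 at most, and the 2 treatments overlapped. In KYSE510 the nearest peak of height 3 or more was 739 bp away, with a height of 3 in 1 library.

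The region at the start of STARD3NL, an endosomal membrane protein, was at chr7:38177757-38178893 and had heights of 66, 42 and 55 in control and 34, 40 and 32 in silenced libraries. The region at the start of ZNF140, a KRAB zinc finger repressor, was at chr12:133079951-133081040 with 41, 34 and 32, then 35, 25 and 26. STARD3NL heights were lower in every silenced library than in any control library, and ZNF140 heights overlapped. The median height over all 26435 regions of height 3 or more in each KYSE150 library was 10, 10 and 11 in the control libraries and 10, 9 and 8 in the silenced ones, so raw heights are not on 1 scale: they were lower in every silenced than in every control library in 9.59% of the 26435 regions and higher in 0.991%, and in 37 (9.79%) and 3 (0.794%) of the chosen 378. Fold-enrichment scores ranked within each library, which are, overlapped between treatments at both genes, and over all 26435 regions 4.96% had scores lower in every silenced than in every control library and 5.35% higher. Limma on these scores gave unadjusted p = 0.197 for STARD3NL and 0.952 for ZNF140, with an adjusted p of 0.944 for STARD3NL. The next KYSE510 peak of height 3 or more was 6733 bp from the first and 41940 bp from the second.

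Within gene bodies, the tallest lay in PCBD2 and is described with its surroundings after the others. The next were in AZIN2, an antizyme inhibitor of polyamine metabolism (chr1:33099222-33099940, 49, 66 and 58 in control and 52, 49 and 48 in silenced libraries), and CARD19, a CARD domain protein (chr9:93111600-93112092, 26, 32 and 35, then 30, 31 and 21). PTPRG, a receptor tyrosine phosphatase, held one at chr3:62109479-62110078 with heights of 30, 29 and 29 and then 29, 31 and 20. In these 3 genes control and silenced heights overlapped. CDC42SE2, a small effector of the GTPase CDC42, held one at chr5:131273652-131274119 with 30, 28 and 35 and then 24, 23 and 18. PTPN14, a phosphatase that restrains the coactivator YAP, held one at chr1:214386766-214387197 with 24, 26 and 28 and then 27, 28 and 24. A further region, 30070 bp from the relaxin gene RLN2 at chr9:5269053-5269794, had 30, 57 and 39 and then 28, 27 and 23. On the within-library ranks, the scores of AZIN2, CARD19, PTPRG and RLN2 overlapped between treatments, those of CDC42SE2 were lower in each silenced library and those of PTPN14 higher in each. For CDC42SE2 limma's unadjusted p was 0.551, and for PTPN14 it was 0.229.

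**Figure D1:**
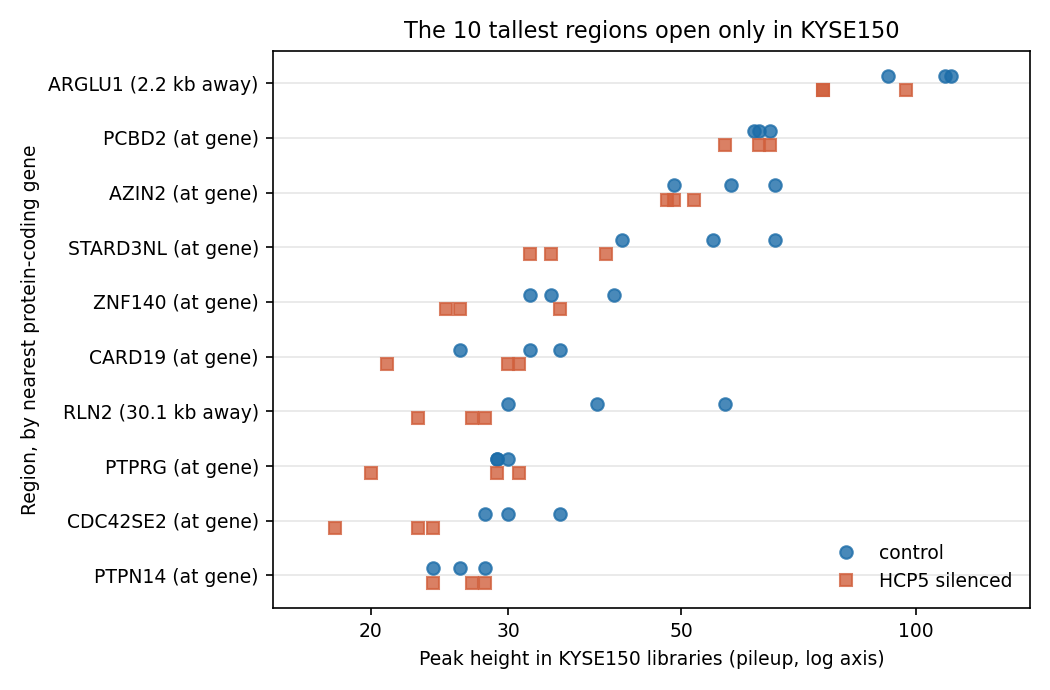
Peak height (pileup, log axis) of the 10 tallest chosen regions in the 6 KYSE150 libraries, with circles for control and squares for HCP5-silenced replicates, ordered by height relative to the library median and named by the nearest protein-coding gene. The region 2.2 kb from ARGLU1 stands above the other 9, and the STARD3NL, RLN2 and CDC42SE2 squares lie left of their circles.

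The AZIN2 region and the region in PCBD2 show that absence of a peak at a site is not absence of signal around it. KYSE510 peaks of up to height 5 in 4 libraries lay within 1 kb of the AZIN2 region, the nearest 86 bp away. The PCBD2 region, chr5:134923783-134924018, overlaps MTCYBP18, a nuclear copy of the mitochondrial cytochrome b gene, and had 62, 65 and 63 in control and 57, 65 and 63 in silenced libraries. Its median fold enrichment was 3.75, which with its height corresponds to a local background of 16.2. The nearest KYSE510 peak was 41 bp away, and within 1 kb all 6 KYSE510 libraries had peaks, of up to height 255. Reads from mitochondrial DNA can map to such copies, and their part in this region was not tested. A second chosen region, chr5:100047592-100047834, also overlaps a mitochondrial pseudogene (10, 9 and 11, then 7, 8 and 9). Of all 378 regions, 85 had a KYSE510 peak of height 3 or more within 1 kb, in all 6 libraries for 21 of them, and 29 overlapped a KYSE510 peak of height 2.

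Of the 378 regions, 36 (9.52%) overlapped a gene start window, 210 (55.6%) lay elsewhere in a protein-coding gene, 41 (10.8%) in another gene and 91 (24.1%) between genes. Among the 13659 regions of height 5 or more in all 12 libraries, 34.9% overlapped a start window and 35.9% lay elsewhere in a protein-coding gene. Among the 5135 regions open only in KYSE510 these shares were 7.56% and 41.0%, with 37.2% between genes. Within 1 kb of an end of a protein-coding gene lay 38 chosen regions (10.1%), compared with 37.6% of the regions in all 12 and 8.67% of those only in KYSE510. The share within 5 kb was 26.98, 46.7 and 16.4%. Both sets restricted to a line were defined by the rule's limits, so these shares are set side by side with no test.

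**Figure D2:**
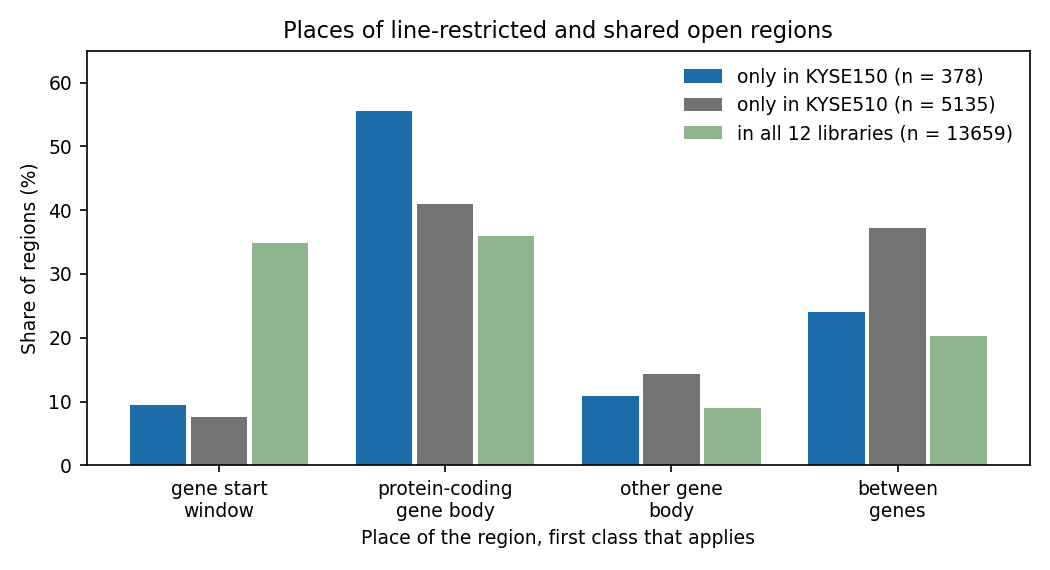
Share of regions (%) in each place, counted in the first class that applies, for 378 regions open only in KYSE150, 5135 only in KYSE510 and 13659 of height 5 or more in all 12 libraries. Start windows hold 9.52% of the first set and 34.9% of the last.

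By chromosome, numbers ran from 3 on chromosome 21 to 34 on chromosome 5 and 33 on chromosome 1. As a share of the strong KYSE150 regions of the same chromosome, chromosome 18 was highest (4.20%), followed by chromosome 4 (3.31%) and chromosome 8 (3.19%), and chromosome 11 was lowest (1.45%). The regions were scattered: joined at distances of up to 10 kb they formed 371 groups, of which 6 held more than 1 region. The longest group, chr6:26188645-26205024, held 3 regions at H4C4, H3C4 and H4C5. The others held 2 regions each, in GUCY2C (the guanylate cyclase receptor of gut epithelium), at EIF4G1 (a scaffold of translation initiation) and FAM131A, near ZNF675, in CAMKK1 (a kinase of calcium signalling) and at STC2 (stanniocalcin).

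CDKN2B was the nearest protein-coding gene of 3 regions and 19 genes were nearest to 2. Among these, PTPN14 held a second region at chr1:214461392-214461871 (18, 20 and 29, then 24, 13 and 8) and PTPRG a second at its start (15, 8 and 12, then 6, 8 and 7). WWC1, which encodes the Hippo pathway scaffold KIBRA, held chr5:168317624-168318050 (20, 23 and 17, then 15, 19 and 16) and chr5:168413032-168413450 (13, 14 and 15, then 14, 19 and 14). STK10, a serine/threonine kinase, held its taller region at chr5:172173739-172174248 (27, 23 and 31, then 17, 22 and 18). TENM2, a teneurin adhesion receptor, held chr5:167814778-167815272 with 24, 32 and 38 in control and 13, 17 and 18 in silenced libraries. By within-library ranks, TENM2 scores at that region were lower in each silenced than in each control library, those of the second WWC1 region were higher, and those of the other regions named here overlapped. None of them passed limma's adjusted test.

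The longest stretch without KYSE510 peaks around a chosen region was on the short arm of chromosome 9. From 21965198 to 23207310 (GRCh38), 1242113 bp, none of the 6 KYSE510 libraries had a deposited peak of any height. The 6 KYSE150 libraries had 167 to 209 peaks there, 17 to 24 of them of height 3 or more. Few of these taller ones lay beyond 505 kb from the first base, with none in control replicate 3 or silenced replicate 3. The last chosen region ended at 292 kb, so KYSE150 too had little of height 3 or more in the rest of the stretch. KYSE510 peaks of height 2 were pooled over the 6 libraries and counted in autosomal windows of 1 Mb. At their median density, about 31.1 in all 6 libraries together would fall in a stretch of this length. Peaks of height 3 or more, which made up most of each KYSE510 table, are left out of this figure. It is therefore too low for peaks of any height. The stretch covers CDKN2A, which encodes an inhibitor of CDK4 and CDK6 and the p53 activator ARF, CDKN2B, which encodes a related CDK inhibitor, and DMRTA1, and it holds 5 of the chosen regions. Whether KYSE510 cells still carry this DNA was not tested, since peak lists show neither copy number nor reads outside peaks.

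The first of the 5, chr9:21993951-21995146, lies in CDKN2A at the start of CDKN2B-AS1, the antisense long non-coding RNA also called ANRIL, and had heights of 20, 15 and 13 in control and 15, 14 and 10 in silenced libraries. The second, chr9:22008622-22009742, covers the start of CDKN2B and had 20, 9 and 18, then 15, 13 and 8. At both, silenced heights overlapped control heights. Within CDKN2B-AS1, chr9:22085172-22085797 had 12, 10 and 9, then 11, 13 and 7, and chr9:22103126-22103690 had 24, 12 and 8, then 16, 17 and 15. The fifth, chr9:22256800-22257643, lay 189181 bp from DMRTA1 with 9, 11 and 18, then 24, 18 and 11. These regions were open at middling height in KYSE150 under both treatments. Further along the same arm, outside the stretch, the starts of ELAVL2, a neuronal RNA-binding protein (chr9:23826211-23826850, 18, 20 and 19, then 20, 21 and 17), and TUSC1 (chr9:25678144-25678794, 12, 14 and 17, then 16, 8 and 16) were also chosen, with KYSE510 peaks 2842 and 2450 bp away.

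On chromosome 19, a stretch of 288010 bp from 56089567 to 56377576 had no KYSE510 peak and 43 to 73 peaks in each KYSE150 library. At the same pooled KYSE510 density about 7.20 peaks of height 2 would fall there in the 6 libraries together, with taller peaks again left out. It holds 4 chosen regions. The starts of the zinc finger genes ZNF787 (chr19:56120974-56121835; 19, 18 and 18 in control, 19, 10 and 14 in silenced libraries), ZNF444 (chr19:56140553-56141344; 20, 14 and 18, then 20, 14 and 13) and ZSCAN5A (chr19:56314211-56315654; 16, 9 and 13, then 10, 5 and 6) were open in all 6 KYSE150 libraries. Between them, near the gene for galanin-like peptide, GALP, chr19:56170274-56170735 had 8, 12 and 12, then 18, 17 and 12. Whether this DNA is present in KYSE510 was likewise not tested.

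The histone gene cluster on chromosome 6 held a shorter stretch, 42601 bp from 26197516 to 26240116, with peaks of KYSE510 on both sides. Its 3 chosen regions cover the starts of H3C4, H2AC7 and H2BC7 (chr6:26199124-26200024; 17, 20 and 15 in control, 15, 14 and 15 in silenced libraries), of H4C5 (chr6:26204337-26205024; 13, 13 and 16, then 7, 6 and 7) and of H2AC8 and H2BC8 (chr6:26216598-26217448; 12, 15 and 22, then 17, 16 and 13). The H3C4 start covered here is the annotated one, at the base where H2AC7 also ends, so the region cannot be assigned to H3C4 alone. The annotated H3C4 gene reaches out of the stretch at its other end. There, still within the annotated gene, KYSE510 had peaks of height 8, 11 and 5 in control and 4, 10 and 4 in silenced libraries. By within-library ranks, H4C5 scores were lower in each silenced library, those of the H3C4 region were higher in each, and those of the H2BC8 region overlapped. H4C4, next to the stretch, had 6, 12 and 10, then 14, 10 and 6, and H4C9, farther along, 6, 6 and 9, then 9, 6 and 9. At the same pooled density, about 1.07 KYSE510 peaks of height 2 would fall in a stretch of this length in the 6 libraries together. For peaks of height 2 that is far fewer than in the longer stretches on chromosomes 9 and 19. Taller KYSE510 peaks are left out of these figures, which therefore do not give the number to be met at any height.

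Replication-dependent histone genes supply histones in S phase and lie in clusters, the largest on chromosome 6. Of the 55 histone genes there, 9 had an end within 1 kb of a chosen region (16.4%), as had 47 of 19126 protein-coding genes (0.246%). Since neighbouring genes share a region, the 9 genes stand for fewer sites. Regions open in all 12 libraries lay within 1 kb of 25 of the 55 genes (45.5%), against 31.7% of all protein-coding genes. For regions open only in KYSE510 it was 5 genes (9.09%), against 2.49%, so that set too was above its share over all genes. H2BC12, among the 9, was also within 1 kb of a region open in all 12. Ends here are the outermost ends of the annotated gene.

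**Figure D3:**
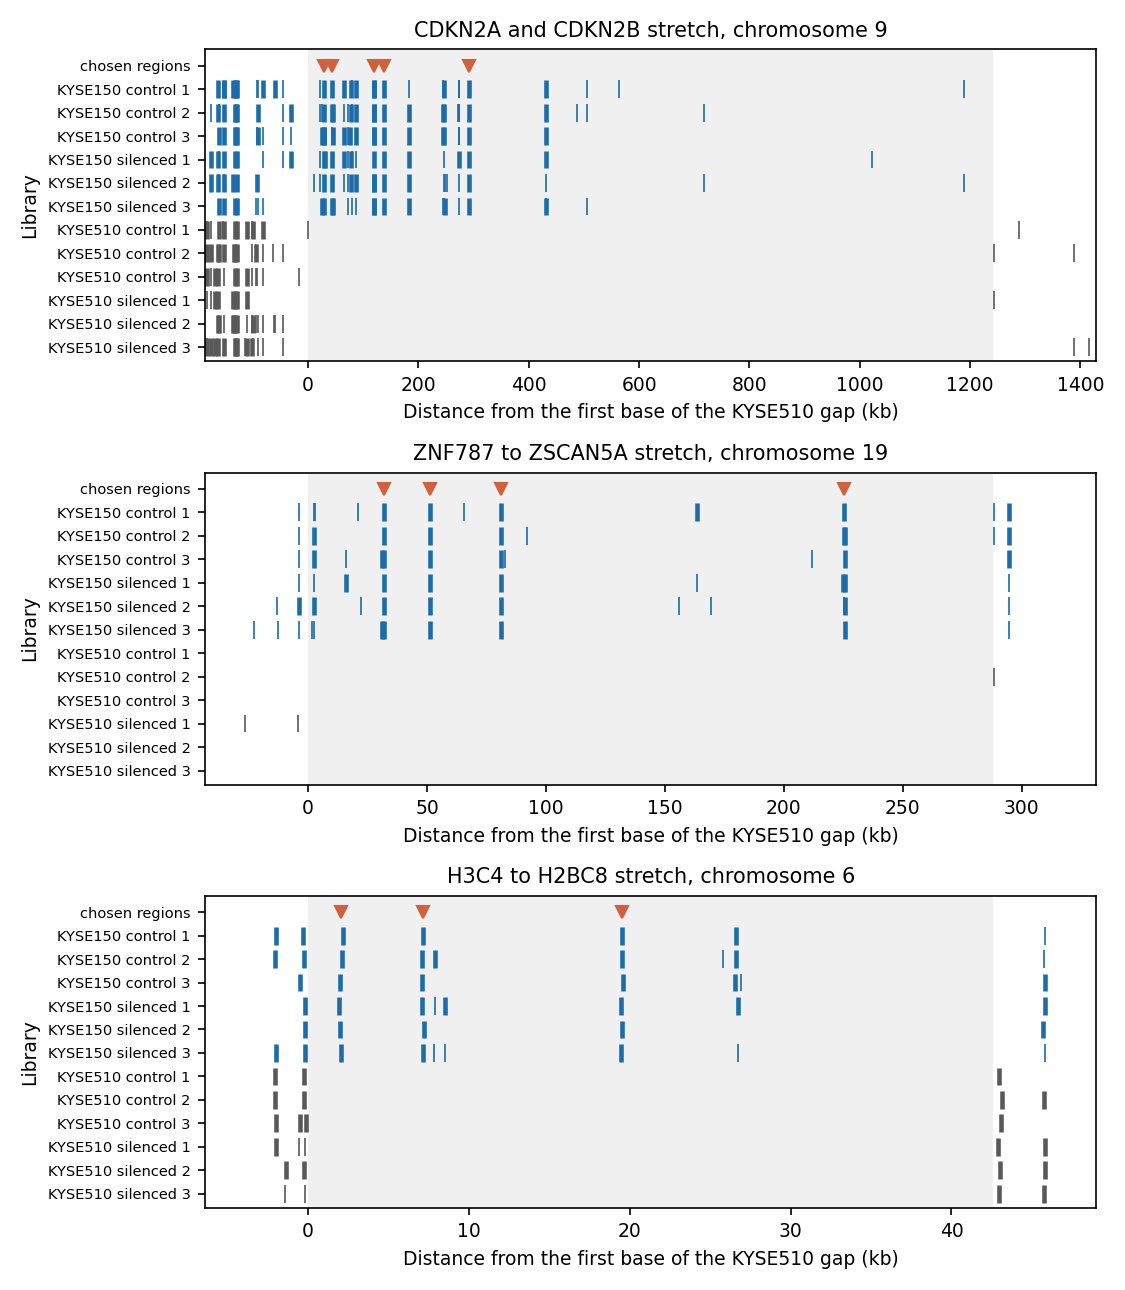
Deposited peaks in each library around 3 stretches without a KYSE510 peak (grey), by distance in kb from the first base of the stretch; only peaks of height 3 or more are drawn, with thick ticks for 5 or more, and triangles mark the chosen regions. KYSE150 ticks line up in all 6 libraries inside the 1242113 bp, 288010 bp and 42601 bp stretches, where the KYSE510 rows are empty. In the first of these, few KYSE150 ticks lie beyond 505 kb.

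Such long stretches surrounded few of the chosen regions. The stretch without any KYSE510 peak had a median length of 10103 bp around a chosen region and 4718 bp over all 299897 such stretches of the autosomes, exceeded 20 kb at 116 regions and exceeded 100 kb at 20. A longer stretch holds more sites whatever their kind, so these medians are not like for like. The autosomes held 874 stretches over 100 kb. The other long ones held 1 chosen region each. They included 449128 bp on chromosome 1 by PPIAL4F, 325287 bp on chromosome 4 near LCORL and 272738 bp on chromosome 13 near TBC1D4. They also included 190599 bp on chromosome 15 near VPS13C and 177472 bp on chromosome 11 near GUCY1A2. The stretch by PPIAL4F held only 7 to 12 peaks in each KYSE150 library, against 30 to 51 in the shorter stretch near LCORL. KYSE150 therefore had few peaks by PPIAL4F too, and the length of that stretch does not by itself set the lines apart. Within 100 kb of a chosen region there was a median of 76 KYSE510 peaks (0 to 175), compared with 85 for all strong KYSE150 regions, and 20 regions had fewer than 10. The nearest KYSE510 peak of height 3 or more was 41 to 291603 bp away with a median of 2604 bp. Most chosen regions therefore lay amid peaks that KYSE510 did have.

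**Figure D4:**
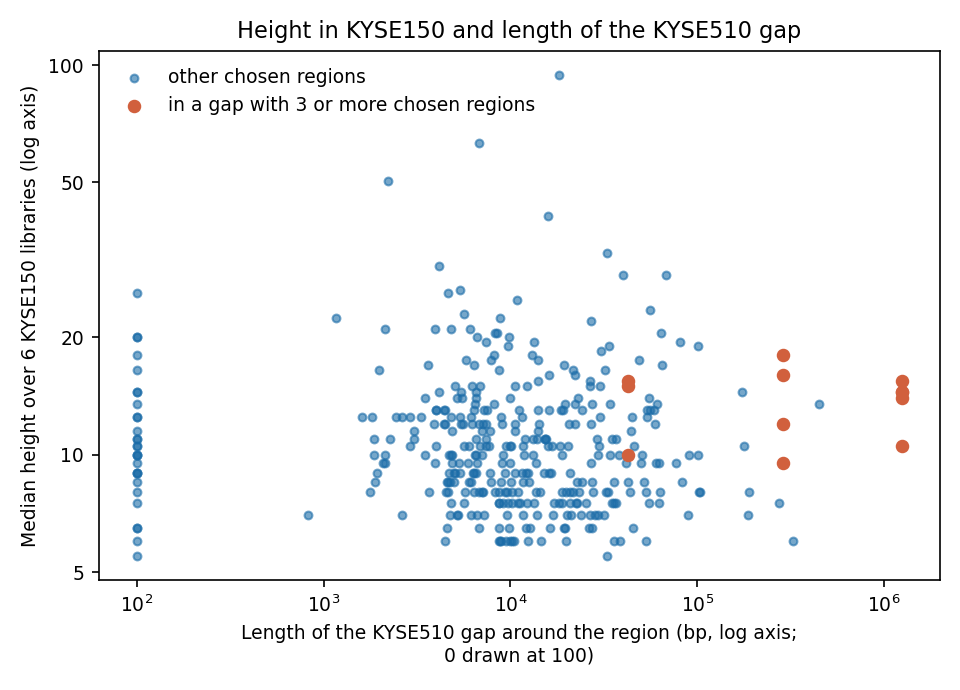
Median height over the 6 KYSE150 libraries (log axis) by length in bp of the surrounding stretch without any KYSE510 peak (log axis, with 29 regions that overlap a KYSE510 peak of height 2 drawn at 100) for the 378 chosen regions. Orange points mark the 12 regions in the stretches on chromosomes 9, 19 and 6, and the tallest regions lie in stretches under 100 kb.

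The 12 pathway lists examined had no gene start at a chosen region. They cover squamous transcription factors, keratins and adhesion, epithelial and mesenchymal state, the AP-1 family, the YAP and TEAD pathway, receptor tyrosine kinases, Wnt, Notch and TGF-beta signalling, the NRF2 pathway, patterning factors, cytokines and interferon response, and apoptosis with MYC. In none of the 12, nor in the 3 lists for haematopoietic, neural, and liver and gut cells, did a gene's start window overlap a chosen region. Over all genes 46 of 26246 symbols (0.175%) did so. At that share a start would seldom be met in lists of this size, so the count of 0 says nothing particular to these lists.

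Away from starts, some genes of the lists were the nearest to 1 chosen region each. LAMB3, a chain of the laminin that anchors basal epithelium, had one 4679 bp away (chr1:209657104-209657527; 12, 7 and 15, then 13, 14 and 7). ST14, the epithelial protease matriptase, held one (chr11:130197481-130198108; 17, 11 and 27, then 23, 23 and 16), as did VGLL4, a cofactor that binds TEAD (chr3:11591157-11591910; 5, 16 and 10, then 10, 16 and 7). In all 3 the treatments overlapped. Regions in SMAD3 and GATA3 had median heights of 8.0 and 6.0, and the regions nearest JAG1, DLL1, TGFB2 and TBX3 lay 229649 to 587515 bp from the gene. Outside the lists, and named after their values were seen, TNC, the matrix protein tenascin C, held a region (chr9:115022673-115023600; 12, 22 and 21, then 20, 24 and 16), and FSCN1, which encodes the actin bundler fascin, had one 645 bp away (chr7:5591239-5592171; 27, 22 and 25, then 20, 17 and 17).

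The rule set the same limits for both treatments, so it did not choose regions by a direction of change with HCP5 silencing. It did require a height of 5 or more in every control and every silenced KYSE150 library, so a region that opened or closed fully with silencing could not be among the 378, and the test below covers only regions open under both treatments. No region passed limma's moderated test on normal scores of within-library fold-enrichment ranks over 26435 regions (Benjamini-Hochberg adjusted p under 0.05, higher 0%, lower 0%; smallest adjusted p = 0.932), the chosen 378 included. At unadjusted p under 0.05, 5 chosen regions were higher (1.32%) and 12 lower (3.17%) in silenced libraries, compared with 2.72% and 2.62% of all tested regions. Fold-enrichment scores of the 2 treatments did not overlap in 22 chosen regions that were higher (5.82%) and 25 that were lower (6.61%), against 5.35% and 4.96% of all tested. These shares are near the background. The difference in score, silenced minus control, was positive in 201 regions and negative in 177, with a median of 0.04 (0.00 over all tested regions) and a range of -1.68 to 1.75, where 1 unit is about the standard deviation of scores within a library. The median standard error was 0.394, so changes of the size most regions showed were within the spread of 3 replicates per group.

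The regions with the smallest unadjusted p show what lay behind these values. Higher in silenced libraries was chr5:157603361-157603755, 21924 bp from SOX30, a transcription factor of the germ line, with heights of 6, 5 and 6 in control and 10, 11 and 8 in silenced libraries. Its mean percentile of fold enrichment was 5.33 ± 5.09 (SD, n = 3) in control and 39.8 ± 3.95 in silenced libraries, a score difference of 1.75 ± 0.473 (SE; limma unadjusted p = 0.00285, adjusted p = 0.932). In PIP5K1C, a lipid kinase that makes the phosphoinositide used at adhesion sites, chr19:3683420-3684317 had 11, 6 and 6, then 21, 14 and 11, a difference of 1.47 ± 0.421 (limma adjusted p = 0.932). The third, chr12:127381670-127382118, nearest to LOC107984449, had 8, 9 and 9, then 12, 11 and 12. In the SOX30 and LOC107984449 regions every silenced library was taller than every control library, and in PIP5K1C the highest control height equalled the lowest silenced one, while ranks did not overlap in any of the 3.

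Lower in silenced libraries was chr9:37409258-37409743, 12692 bp from GRHPR, the glyoxylate reductase, with heights of 10, 13 and 14 in control and 5, 5 and 6 in silenced libraries. Its mean percentile was 41.4 ± 14.6 (SD, n = 3) in control and 6.02 ± 7.96 in silenced libraries, a score difference of -1.68 ± 0.455 (SE; limma unadjusted p = 0.00281, adjusted p = 0.932). The region 34890 bp from LHFPL3, chr7:104943451-104944079, had 19, 25 and 18, then 10, 8 and 6. The region 55500 bp from GRM7, a metabotropic glutamate receptor, chr3:6805287-6805615, had 14, 27 and 16, then 6, 10 and 7. In all 3 every silenced library was below every control library. None of the 6 passed after adjustment, and they are the extremes of 378 regions. Of the regions in stretches empty in KYSE510, GALP (unadjusted p = 0.0239, higher) and H4C5 (unadjusted p = 0.0408, lower) were below 0.05 before limma's adjustment and not after it (adjusted p = 0.932 for both).

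**Figure D5:**
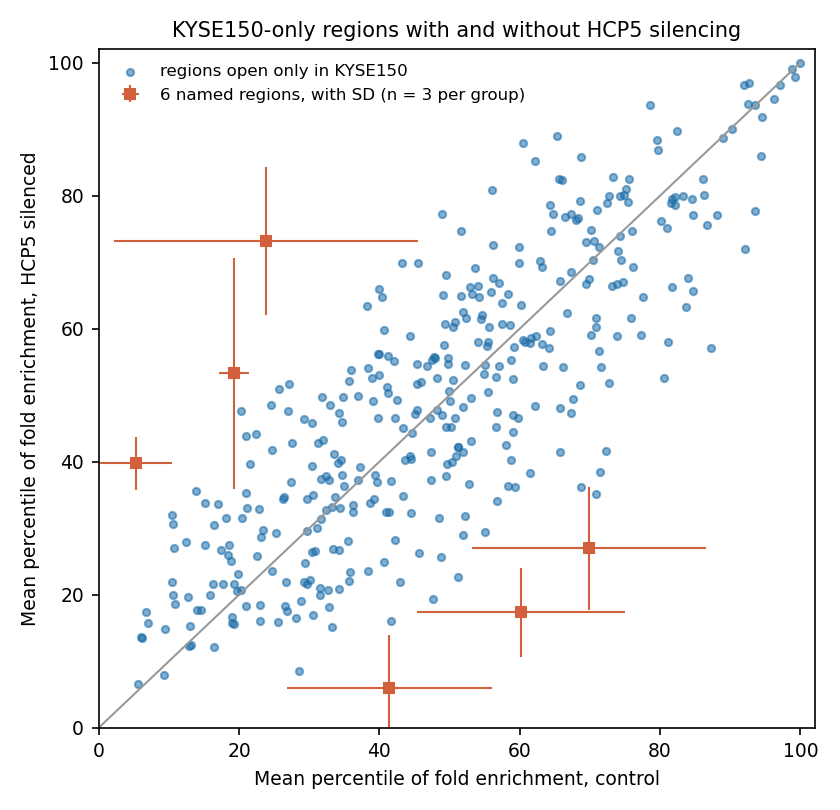
Mean percentile of fold enrichment within the library in control (x axis) and HCP5-silenced (y axis) KYSE150 libraries, n = 3 each, for the 378 chosen regions, with the line of equal values. Squares with SD bars are the 6 regions of smallest unadjusted p, 3 in each direction, and all 6 have an adjusted p of 0.932.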

How the data were processed

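The 12 tables hold 1 peak list per library. The submitters' processing notes name Trimmomatic 0.36, Bowtie2 2.2.6, Picard 2.8.2, MACS2 2.1.1 and bedtools 2.25.0 and the build GRCh38, with no roles or settings. Per the file headers, each peak has a fold enrichment (a ratio to local background), a p-value, an FDR, a length and a pileup, a signal giving the peak's height. The authors deposited no summit position, and read numbers were not used here, so depth is unknown and no counting interval was computed. Deposited fold enrichment was read as (height + 1) / (background + 1), from which background was solved.

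Peaks on chromosomes 1 to 22 were merged with Python 3.11.15, numpy 2.4.6 and pandas 2.3.3. A region takes the tallest peak of each library. Genes, and windows from 250 bases before to 50 after a start, came from RefSeq GRCh38.p14. For HCP5 silencing, fold-enrichment ranks within each KYSE150 library were turned into normal scores over the 26435 regions of height 3 or more in all 6 libraries and compared by limma 3.58.1 (lmFit, eBayes; R 4.3.3; Benjamini-Hochberg over all regions, threshold 0.05). The fit was tested only on simulated data with planted score shifts larger than any change seen in the chosen regions. Its power for changes of the size seen was not tested. A few genes of the lists are not reported here. P-values measure the spread between these samples only. Figures used matplotlib 3.10.9.

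Members, gene lists and tests were chosen with earlier results of these data known. Regions named are the 10 tallest relative to the library median, the genes and groups with the most regions, the 3 smallest p in each direction, those at the rule's limits and those of the 15 gene lists, and others are named as chosen after their values were seen, including those in stretches without a KYSE510 peak. A stretch counts as empty when no KYSE510 library has a deposited peak of any height in it. Height limits, FDR, merging, overlap, score scale, a replicate block and leaving out each library were tried as alternatives. Peaks on other sequences were left out because the rule takes chromosomes 1 to 22.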

Additional observations from a re-analysis of the deposited data

How the results depend on the processing

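The number of regions open only in KYSE150 depends on where the limits stand. It was 378 as defined, 75 with a height of at least 10 in each KYSE150 library, 800 with at least 3, 153 with an FDR of at most 1e-05, and 1030 when KYSE150 peaks were merged alone and a KYSE510 peak had to cover 0.5 of the region to count. It was 349 with no KYSE510 peak of any height. With peaks within 1 kb merged it was 288, which kept 6 of the 10 tallest regions. The other 5 of these alternatives kept all 10. The limits of 3 and of 0.5 cover only loosen the rule, and all 10 regions exceeded a height of 10 in each KYSE150 library. Under these limits all 10 were bound to stay. Leaving out 1 library at a time gave 398 to 460. A rule with fewer libraries is easier to meet, so a rise was built in, and the 378 regions stayed covered each time. Widening the distance to a gene end from 1 kb to 5 kb raised the share of regions counted from 10.1% to 26.98%.

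No chosen region passed limma's adjusted test of silencing under any of the 11 alternatives, and leaving out 1 library at a time gave 0 to 0. The smallest adjusted p of a chosen region was 0.766 to 0.986 over these. The 17 regions at unadjusted p under 0.05 became 26 with height 5 as the limit and 11 without silenced replicate 1. The 6 named regions kept their direction in all 11. With the replicate number as a block, 0 regions passed and 15 had an unadjusted p under 0.05. Same-numbered control and silenced libraries correlated at 0.0674, 0.0609 and 0.0162 in their deviations from the group means, so the numbers were not taken as pairs, although each library correlated best with its own number. Unknown depth and a height limit near the lowest recorded heights restrict what absence from KYSE510 means.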
